A study of Homo sapiens with 19 samples.

Results

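Glucose enters a cell through facilitative transporters of the SLC2A family and is trapped inside it by phosphorylation. The genes described here are SLC2A1 and SLC2A3, which encode the transporters GLUT1 and GLUT3, HK1 and HK2, which encode the hexokinases that phosphorylate glucose, and PFKFB2, PFKFB3 and PFKFB4, which encode bifunctional enzymes that make and break down fructose 2,6-bisphosphate, the activator of phosphofructokinase. They were taken by symbol, all 7 of them, from a table of 23441 gene symbols, and peaks of HIF binding were taken by their distance from the annotated start sites of these genes. The measurements come from 786-O, a VHL-defective line of clear cell renal cell carcinoma that lacks full-length HIF-1α and keeps HIF-2α constitutively active. Pools of these cells, not single clones, were transduced with a lentiviral vector (pRRL, carrying IRES and EGFP) that was empty in the control cells and held HIF-1α or HIF-2α in the others, so that all 3 pools carry the vector and keep the endogenous HIF-2α. Binding of HIF-2α and of its partner HIF-1β was measured by ChIP-seq in control cells and in HIF-2α overexpressing cells, and binding of HIF-1α, HIF-1β and HIF-2α in HIF-1α re-expressing cells, with 1 library for each of the 7 lists of peaks. PolyA-selected RNA was sequenced in 3 libraries from each of the 3 pools, and nothing in the labels says that these came from separate transductions, so the p-values measure the spread between these libraries.

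HIF-1α and HIF-2α each pair with HIF-1β and bind the same short core, the hypoxia response element, which reads ACGTG or GCGTG. When VHL is intact, the α subunits are degraded in the presence of oxygen, and in clear cell carcinoma loss of VHL lets them persist. Glucose transporters, hexokinases and the PFKFB enzymes are textbook targets of this pathway, and this carcinoma is known for high glucose uptake and storage of glycogen and lipid.

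Library totals ranged from 27852754 to 54287621 counts, and each member was represented by 445 counts or more in every library. The transgenes followed the labels. HIF1A was at 171, 1682 and 473 CPM (counts scaled to the library total and its TMM factor) in HIF-1α re-expressing replicates 1, 2 and 3, and at 15.3 to 152 in the other 6 libraries. EPAS1, which encodes HIF-2α, was at 946, 3244 and 880 CPM in HIF-2α overexpressing replicates 1, 2 and 3. It was at 575, 627 and 397 in HIF-1α re-expressing and at 456, 224 and 162 in control replicates 1, 2 and 3. Between these 2 pools it was thus higher after HIF-1α re-expression in all 3 pairs of the same number (29% of all genes), with overlapping ranges. In edgeR's quasi-likelihood test the log2 fold change of HIF1A after its re-expression was 3.41 (adjusted p = 0.149, or 3.12 and 0.0418 with the replicate number in the model), and that of EPAS1 after its overexpression was 2.59 (adjusted p = 0.490, or 2.48 and 0.0690). The replicates therefore differed in the amount of transgene, with replicate 2 the highest in both pools. Control replicate 3 stood apart from the other control libraries in HIF1A, at 152 CPM against 30.4 and 36.7, and in CA9, a carbonic anhydrase and known HIF-1α target, at 14.3 CPM against 0 and 0.171. The part of that library in the results was not tested beyond the values without it given below. In such bulk RNA a change in the share of expressing cells cannot be told apart from a change in RNA per cell. Markers of clear cell carcinoma and renal epithelium (7 genes) summed to 4784 to 7013 CPM, most of it VIM at 3963 to 5671 CPM. Of the others, PAX8 was at 175 to 364 CPM and PAX2 at 8.53 to 26.7. CA9 ranged from 0 in control replicate 1 to 177 in HIF-1α re-expressing replicate 2. In HIF-2α overexpressing cells it was at 0.105 to 0.694, so the sum does not show each marker in every library. Markers of leukocytes and endothelium (5 genes) summed to 0.384 to 0.651 CPM in control and HIF-2α overexpressing cells. In HIF-1α re-expressing cells these 5 summed to 0.441 to 1.62 CPM.

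HIF binding was called at every one of the 7 genes, but only 3 of them, SLC2A1, HK1 and PFKFB4, had a peak in all 7 lists. A gene was counted when the midpoint of a peak, a window of 2500 bases in these lists, lay within 10 kb of any annotated start site. By this rule 7 of 7 genes had a peak in at least 1 list, against 55% of the 13769 expressed genes that could be placed, and 3 of 7 had a peak in all 7 lists, against 1.84%. A gene with more annotated starts has more chances to be counted. The members had from 3 (HK2) to 25 (HK1) starts, beside a median of 7 over placed genes. HIF-2α in control cells was called at 5 of the 7 genes (5.33% of placed genes) and HIF-1β in those cells at 5 (25.7%). In HIF-1α re-expressing cells HIF-1α was called at 5 (34.6%), HIF-1β at 5 (40.8%) and HIF-2α at 3 (4.22%). In HIF-2α overexpressing cells HIF-2α was called at 6 (14.5%) and HIF-1β at 5 (16.2%). The lists hold positions only, with no height and no depth, and with 1 library per list no test was made, so a gene without a peak is a gene without a call.

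**Figure D1:**
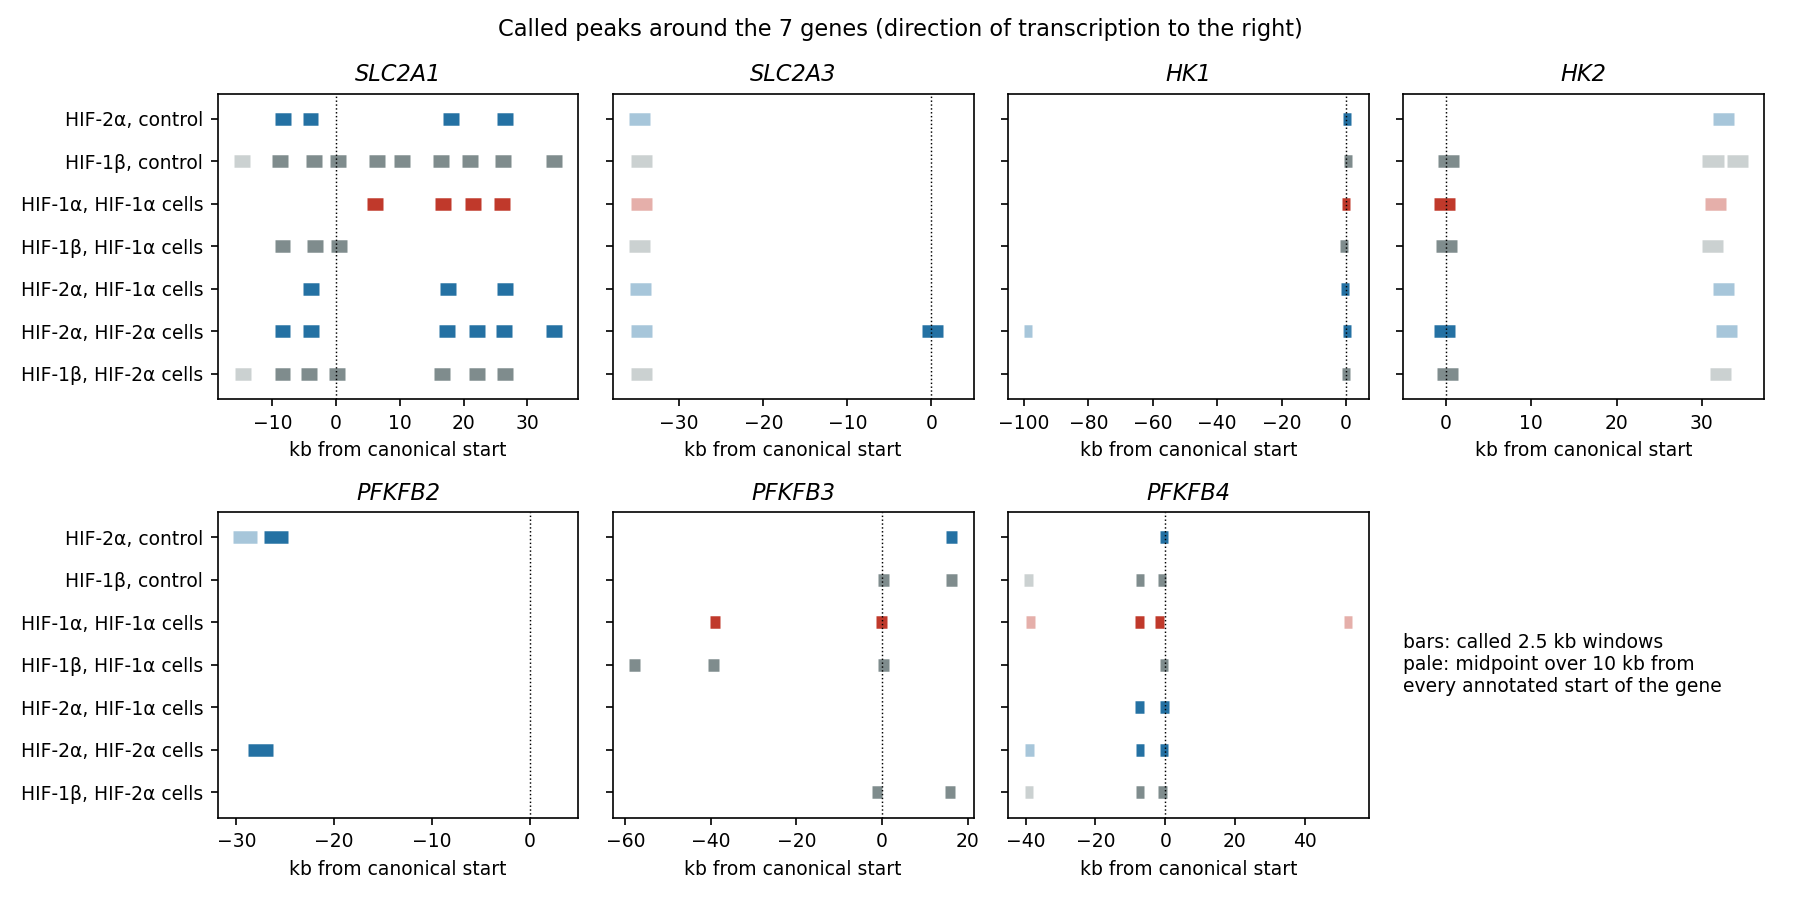
Called peaks around the 7 genes, by list (rows) and by distance in kb from the canonical start site (horizontal axis, direction of transcription to the right). Each bar is a called window of 2500 bases, drawn pale where its midpoint is over 10 kb from every annotated start of the gene. HK1 shows a bar over the start site in all 7 rows and SLC2A3 in 1 row. PFKFB4 shows a bar near its start in all 7 rows, with that of HIF-1α centred at -1.71 kb and short of the start. SLC2A3 and HK2 each show a distal column of pale bars in all 7 rows.

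The sequences below are the 120 bases around an HRE core at 8 of the sites described below, shown to let the cores be read in place at each gene with HIF-1β calls, chosen clear of annotated exons and printed on the strand of the gene, with every match to the core (ACGTG or GCGTG, or CACGT or CACGC when read on the other strand) in capitals.
SLC2A1, upstream site, GRCh37 chr1:43428416-43428535, minus strand: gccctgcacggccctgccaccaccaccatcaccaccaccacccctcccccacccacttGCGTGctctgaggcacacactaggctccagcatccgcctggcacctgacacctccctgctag
SLC2A1, intronic site, GRCh37 chr1:43398044-43398163, minus strand: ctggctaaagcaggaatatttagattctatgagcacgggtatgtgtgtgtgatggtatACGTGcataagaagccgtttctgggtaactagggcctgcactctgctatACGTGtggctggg
SLC2A3, upstream site, GRCh37 chr12:8123352-8123471, minus strand: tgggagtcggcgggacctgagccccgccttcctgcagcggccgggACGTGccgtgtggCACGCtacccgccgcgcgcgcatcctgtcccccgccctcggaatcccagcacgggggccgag
HK1, start-site flank, GRCh37 chr10:71078425-71078544, plus strand: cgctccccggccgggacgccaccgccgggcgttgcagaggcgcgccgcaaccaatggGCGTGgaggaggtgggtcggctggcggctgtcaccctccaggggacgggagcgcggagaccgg
HK2, first-intron side of the start site, GRCh37 chr2:75061872-75061991, plus strand: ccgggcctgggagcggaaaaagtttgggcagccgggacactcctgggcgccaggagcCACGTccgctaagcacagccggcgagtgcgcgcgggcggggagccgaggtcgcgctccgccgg
PFKFB3, upstream start, GRCh37 chr10:6205592-6205711, plus strand: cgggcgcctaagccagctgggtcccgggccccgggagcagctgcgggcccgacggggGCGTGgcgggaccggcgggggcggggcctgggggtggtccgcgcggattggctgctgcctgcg
PFKFB3, intronic site, GRCh37 chr10:6261126-6261245, plus strand: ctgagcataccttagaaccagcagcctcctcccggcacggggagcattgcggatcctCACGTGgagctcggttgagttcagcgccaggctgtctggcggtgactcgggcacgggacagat
PFKFB4, start-site flank, GRCh37 chr3:48594817-48594936, minus strand: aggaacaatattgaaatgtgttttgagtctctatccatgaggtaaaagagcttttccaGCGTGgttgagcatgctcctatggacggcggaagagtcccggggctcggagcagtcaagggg
The 6 capitals of the intronic PFKFB3 site are a core on each strand, overlapping, and count as 2 matches. A core stood within 150 bases of the midpoint in 48 of the 72 peaks within 10 kb of these genes. Over all peaks of each list the share with a core in that window of 300 bases was 45.7% to 68.2%, so the match describes these peaks without setting them apart.

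The glucose transporters were bound in different places, SLC2A1 at many sites and SLC2A3 far from its start. Around SLC2A1 (chr1:43391024-43424564, minus strand, GRCh37) 35 peaks within 10 kb of its 11 annotated starts merged into 9 sites. The upstream site printed above, centred at -3.83 kb from the canonical start (minus for upstream) in an intron of the divergent transcript SLC2A1-DT, and the intronic sites at 17.1 and 26.3 kb, each appeared in 6 of the 7 lists. The upstream site lacked only HIF-1α, and the intronic pair lacked only HIF-1β of HIF-1α re-expressing cells. The start site itself, at 0.268 kb, carried HIF-1β in all 3 pools and no call of either α subunit. HIF-1α was called at 4 sites of SLC2A1, all within the gene, and none of them had a HIF-1β call in the same cells, while all 4 overlapped a HIF-1β peak of control cells. At SLC2A3 (chr12:8071826-8171603, minus strand) the canonical start site carried a single call, HIF-2α in HIF-2α overexpressing cells. All 7 lists instead held a peak centred at -34.6 kb, within an intron of the longer transcripts, where the merged window of 2808 bases contained 13 cores.

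HK1 and HK2 differed in where HIF-2α was called. At HK1 (chr10:71029740-71161640, plus strand) a single site over the canonical start was present in all 7 lists, with midpoints from -0.789 to 0.629 kb. At HK2 (chr2:75061254-75120486, plus strand) the start site was present in 5 lists, HIF-1α, HIF-1β in each pool and HIF-2α of HIF-2α overexpressing cells, and was missing from the HIF-2α lists of control and HIF-1α re-expressing cells. Its merged window held 19 cores, the most of any site around the 7 genes. HIF-2α of all 3 pools was called in the intron of HK2. There 8 peaks from the 7 lists, chained by overlaps but not all overlapping each other, had a mean midpoint 32.3 kb after the start. The HIF-1α midpoint was at 31.6 kb and those of HIF-2α at 32.5 to 32.9 kb. A further peak of HIF-2α overexpressing cells alone lay at -98.6 kb from the canonical start of HK1, and its nearest start was that of the neighbouring hexokinase gene HKDC1, 0.044 kb away.

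The PFKFB genes were bound by different subunits. PFKFB4 (chr3:48555117-48599448, minus strand) had a site centred at -0.655 kb from its canonical start in all 7 lists. Its midpoints ran from -1.71 kb, for HIF-1α, to -0.224 kb. A second site, at -7.29 kb and nearest to the start of UCN2, was in 5 lists. PFKFB3 (chr10:6186897-6296607, plus strand) carried HIF-1α at 2 of its start sites, -0.115 and -39.2 kb from the canonical one, each with HIF-1β of the same cells. HIF-1β was also called at the canonical start in control and HIF-2α overexpressing cells. HIF-2α was called at PFKFB3 only in control cells and only at the intronic site 16.2 kb downstream, which HIF-1β shared in control and HIF-2α overexpressing cells. PFKFB2 (chr1:207207711-207254369, plus strand) showed HIF-2α alone, in control and HIF-2α overexpressing cells, with no HIF-1β and no HIF-1α call. The mean midpoint of the 3 peaks was at -27.5 kb from the canonical start, within an intron of C1orf116. It lay 8.61 kb from the nearest PFKFB2 start and 7.003 kb from that of C1orf116. Only the peak of HIF-2α overexpressing cells covered it. The 2 control peaks did not overlap each other and centred on either side, at -29.1 and -25.9 kb. The first of them lay over 10 kb from every PFKFB2 start. Across the 7 genes, HIF-1α made 10 peaks at 5 genes, of which 5 peaks at 4 genes overlapped HIF-1β of the same cells and 9 peaks at 5 genes overlapped HIF-1β of control cells. Over all HIF-1α peaks these shares, for an overlap of at least 1 base, were 59.8% and 57.5%. At an overlap of 50% of the shorter peak, HIF-1β of the same cells was shared by 4 peaks at 3 genes, without PFKFB4 (57.4% of all HIF-1α peaks). HIF-1β of control cells was still shared by 9 peaks at 5 genes (54.9%).

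SLC2A1 was the most abundant of the 7 transcripts, and its highest levels were in HIF-2α overexpressing cells. In control replicates 1, 2 and 3 it was at 1264, 995 and 944 CPM, in HIF-1α re-expressing cells at 1062, 1505 and 1095, and in HIF-2α overexpressing cells at 1591, 2959 and 2403. Every HIF-2α overexpressing library lay above every control library and above every HIF-1α re-expressing library, and control and HIF-1α re-expressing cells overlapped each other. The fitted log2 fold change was 1.12 ± 0.29 (SE, n = 3 against 3) for HIF-2α overexpression, with a 95% interval of 0.47 to 1.77, and its adjusted p-value was 0.708 by edgeR's quasi-likelihood test, which did not pass. With DESeq2 the same difference had an adjusted p of 0.0476. HIF-1α re-expressing cells were lower than HIF-2α overexpressing cells by 0.93 ± 0.29 on the log2 scale (edgeR adjusted p = 0.205, DESeq2 0.0426), with ratios of 0.667, 0.509 and 0.456 in the 3 pairs of libraries that share a replicate number. Without control replicate 3 the change after HIF-2α overexpression was 1.04. After HIF-1α re-expression the log2 fold change was 0.19, with an interval of -0.45 to 0.84.

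SLC2A3 varied more between the control libraries than between the pools. It was at 145, 44.1 and 24.4 CPM in control replicates 1, 2 and 3, at 99.1, 131 and 138 in HIF-1α re-expressing cells and at 105, 143 and 107 in HIF-2α overexpressing cells. Control replicate 1 was the highest library of all 9, and replicates 2 and 3 were the lowest. The log2 fold changes were 0.79 ± 0.52 after HIF-1α re-expression and 0.74 ± 0.52 after HIF-2α overexpression (edgeR adjusted p = 0.419 and 0.843). Without control replicate 1 they were 1.83 and 1.79 (adjusted p = 0.125 and 0.407), and without control replicate 3 they were 0.37 and 0.33. When the replicate number was also a term of the model, SLC2A3 passed without control replicate 1, with 1.99 (adjusted p = 0.0173) and 1.93 (adjusted p = 0.0331). Its near-identical neighbour SLC2A14 was at 0.196 CPM or less. By the study's methods fragments without a unique position were excluded, so those fitting both genes would be missing from both counts. How many were lost was not tested.

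**Figure D2:**
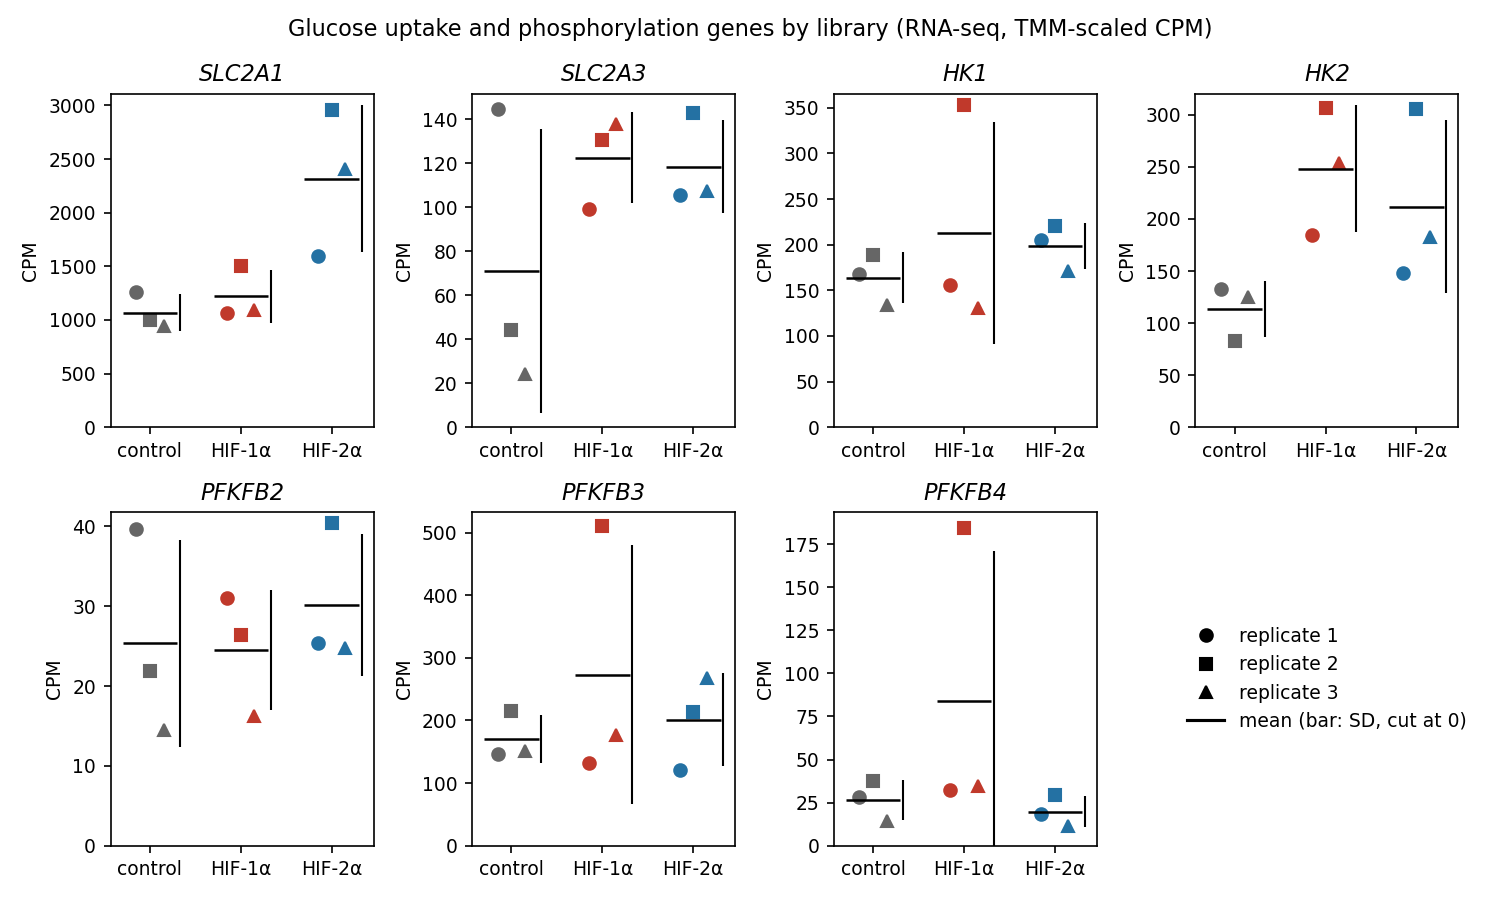
Level of each gene in the 9 RNA-seq libraries, as TMM-scaled CPM on a linear axis from 0. Points are libraries (circle, square and triangle for replicates 1, 2 and 3), horizontal lines are means and vertical lines are 1 SD on either side, cut at 0. HIF-2α overexpressing replicate 2 is the highest point of SLC2A1, and HIF-1α re-expressing replicate 2 is the highest point of HK1, PFKFB3 and PFKFB4.

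HK2, the inducible hexokinase, was higher than in control cells in all 6 libraries with a transgene. It was at 133, 82.6 and 125 CPM in control cells, at 185, 306 and 254 in HIF-1α re-expressing cells and at 148, 305 and 183 in HIF-2α overexpressing cells. Neither pool with a transgene overlapped the control cells, and those pools overlapped each other. The log2 fold change after HIF-1α re-expression was 1.13 ± 0.32 (95% interval 0.41 to 1.85), which did not pass in edgeR (adjusted p = 0.162) and passed in DESeq2 (adjusted p = 0.0382). After HIF-2α overexpression it was 0.90 ± 0.32 (edgeR adjusted p = 0.796, DESeq2 0.421). Both comparisons use the same 3 control libraries, and without control replicate 3 the changes were 1.199 and 0.98. Set directly against each other, HIF-1α re-expressing and HIF-2α overexpressing cells differed by 0.23 on the log2 scale, with an interval of -0.49 to 0.94.

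HK1, the housekeeping hexokinase, was at 168, 189 and 134 CPM in control cells, at 156, 353 and 131 in HIF-1α re-expressing cells and at 205, 220 and 171 in HIF-2α overexpressing cells. The groups overlapped, and HIF-1α re-expressing replicate 2 was the highest of all 9 libraries. The log2 fold change after HIF-1α re-expression was 0.38 ± 0.35, and it was -0.22 without that library. In HIF-2α overexpressing cells HK1 exceeded the control library of the same number by 1.22, 1.16 and 1.28 times, a narrow range, and the fitted change was 0.28 ± 0.35 (edgeR adjusted p = 0.898).

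PFKFB4 was the only member that passed in edgeR on all 9 libraries, between the HIF-α transgenes and with the replicate number in the model. It was at 28.0, 37.7 and 14.6 CPM in control replicates 1, 2 and 3, at 32.4, 184 and 34.9 in HIF-1α re-expressing cells and at 18.1, 29.4 and 11.4 in HIF-2α overexpressing cells. Every HIF-1α re-expressing library lay above every HIF-2α overexpressing library. Relative to the control library of the same number, PFKFB4 was 1.16, 4.89 and 2.39 times as high after HIF-1α re-expression and 0.648, 0.781 and 0.784 times as high after HIF-2α overexpression. Between the 2 transgenes the log2 difference was 2.09 ± 0.69 (edgeR adjusted p = 0.227). Replicate numbers paired the libraries across pools, and with the replicate number in the model the difference was 1.78 ± 0.35 (95% interval 0.98 to 2.58), which passed (edgeR adjusted p = 0.0224). PFKFB4 also passed in DESeq2, with an adjusted p of 0.0315.

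The difference in PFKFB4 rested in part on HIF-1α re-expressing replicate 2, the library with the most HIF1A. Without it the log2 difference was 0.74 in the model of the pool alone and 1.202 with the replicate number (edgeR adjusted p = 0.551 and 0.0619). The adjusted p with the replicate number also exceeded 0.05 when HIF-1α re-expressing replicate 3 (0.0502) or HIF-2α overexpressing replicate 1, 2 or 3 (0.0622, 0.0822 and 0.101) was left out, while the difference stayed between 1.51 and 1.89. Without control replicate 3, which had the highest HIF1A of the control cells, it was 1.77 (adjusted p = 0.0347). Against control cells PFKFB4 had a log2 fold change of 1.65 ± 0.67 after HIF-1α re-expression (edgeR adjusted p = 0.233, DESeq2 0.1004) and of -0.44 ± 0.66 after HIF-2α overexpression (adjusted p = 0.921). With the replicate number the first was 1.32 ± 0.35 in edgeR (adjusted p = 0.0517) and 1.296 in DESeq2, where it passed (adjusted p = 0.00372). Without the replicate number, those values were 1.35 and -0.74 when control replicate 3 was left out, and the first was 0.30 without HIF-1α re-expressing replicate 2.

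PFKFB3 was at 146, 215 and 151 CPM in control cells, at 132, 511 and 176 in HIF-1α re-expressing cells and at 121, 213 and 268 in HIF-2α overexpressing cells. The pools overlapped, with 1 high library as for HK1 and PFKFB4. Its log2 fold change after HIF-1α re-expression was 0.68 ± 0.49, or -0.18 without HIF-1α re-expressing replicate 2. PFKFB2, the isoform best known from heart, was at 14.4 to 39.7 CPM in control cells, 16.3 to 31.0 after HIF-1α re-expression and 24.7 to 40.4 after HIF-2α overexpression. Its log2 fold changes were -0.05 and 0.25, with intervals of -0.92 to 0.83 and -0.62 to 1.12.

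**Figure D3:**
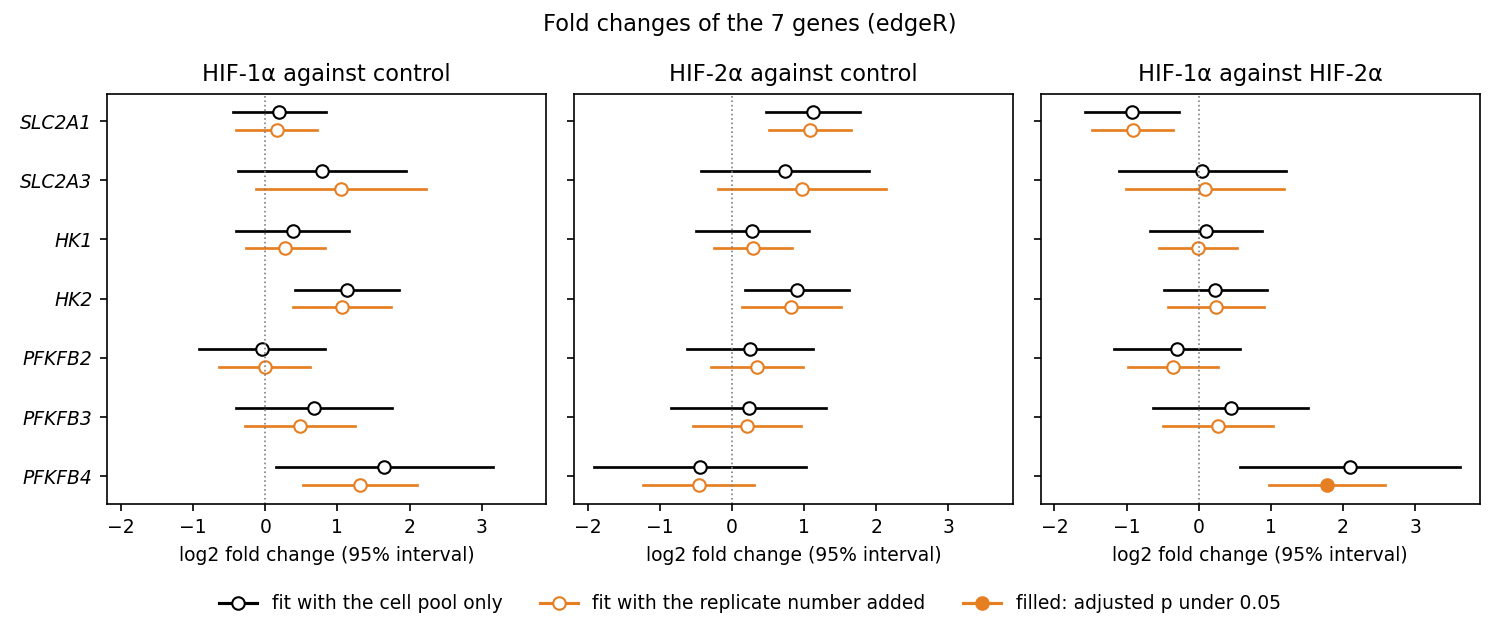
log2 fold change of each gene with its 95% interval in the 3 comparisons, from edgeR with the pool as the only term (black) and with the replicate number added (orange). Filled points have an adjusted p under 0.05. The single filled point is PFKFB4 in HIF-1α re-expressing against HIF-2α overexpressing cells, at 1.78.

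Over the 7 genes, edgeR with the pool as the only term called 0 in each of the 3 comparisons. The background was 0% of 14225 genes after HIF-1α re-expression, 0% after HIF-2α overexpression and 0.0492% (7 genes) between the transgenes. At an unadjusted p under 0.05 it counted 2 members in each comparison, HK2 and PFKFB4, SLC2A1 and HK2, and SLC2A1 and PFKFB4, among 2757, 838 and 1941 genes. With the replicate number it called 0, 0 and 1 member against 7.96%, 0.267% and 5.93% of genes. DESeq2 called 1 (HK2), 1 (SLC2A1) and 2 members (SLC2A1 and PFKFB4) against 5.46%, 0.423% and 4.25%, and DESeq2 with the replicate number 2 (HK2 and PFKFB4), 1 (SLC2A1) and 2 (SLC2A1 and PFKFB4) against 22%, 3.39% and 12.5%. The median log2 fold change of the members was 0.68 after HIF-1α re-expression and 0.28 after HIF-2α overexpression, beside 0.04 and -0.02 for all genes. Between libraries of the same number, 2 members were higher in all 3 pairs after HIF-1α re-expression (29% of all genes) and 0 lower (25%), 3 were higher (19.7%) and 1 lower (19.4%) after HIF-2α overexpression, and 2 were higher (25.3%) and 1 lower (24.1%) between the transgenes. Groups did not overlap for 1 member after HIF-1α re-expression (24.1% of all genes), for 2 after HIF-2α overexpression (11.2%) and for 2 between the transgenes (19.2%).

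**Figure D4:**
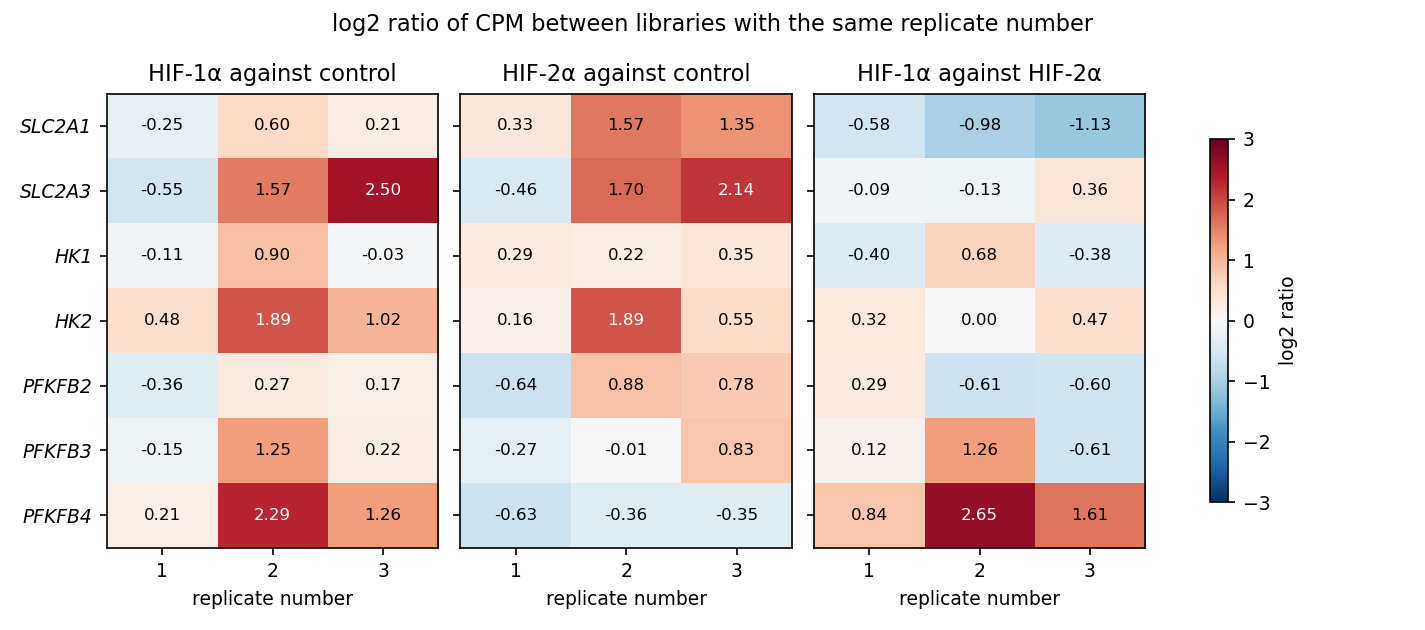
log2 ratio of CPM for each gene (rows) between libraries with the same replicate number (columns 1, 2 and 3), in the 3 comparisons, with red for a higher and blue for a lower level in the pool named first. PFKFB4 is red in all 3 pairs after HIF-1α re-expression and blue in all 3 after HIF-2α overexpression, and SLC2A3 is blue in pair 1 and red in pairs 2 and 3 in both.

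Levels were compared between genes as CPM per kb of the canonical transcript. In control cells SLC2A1 led with 315 ± 50.8 (SD, n = 3), followed by HK1 (45.4 ± 7.80), PFKFB3 (38.1 ± 8.59), HK2 (20.2 ± 4.79), SLC2A3 (18.6 ± 16.9), PFKFB4 (7.65 ± 3.32) and PFKFB2 (3.58 ± 1.83). SLC2A1 lay above HK1, and PFKFB3 above HK2, without overlap of the control libraries. The other neighbours in this order, HK1 with PFKFB3, HK2 with SLC2A3, SLC2A3 with PFKFB4, and PFKFB4 with PFKFB2, had overlapping ranges. In HIF-2α overexpressing cells SLC2A1 reached 685 ± 203 CPM per kb. Per kb of all annotated exons, the order of HK1 and PFKFB3 in control cells turned, at 23.8 and 27.9.

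**Figure D5:**
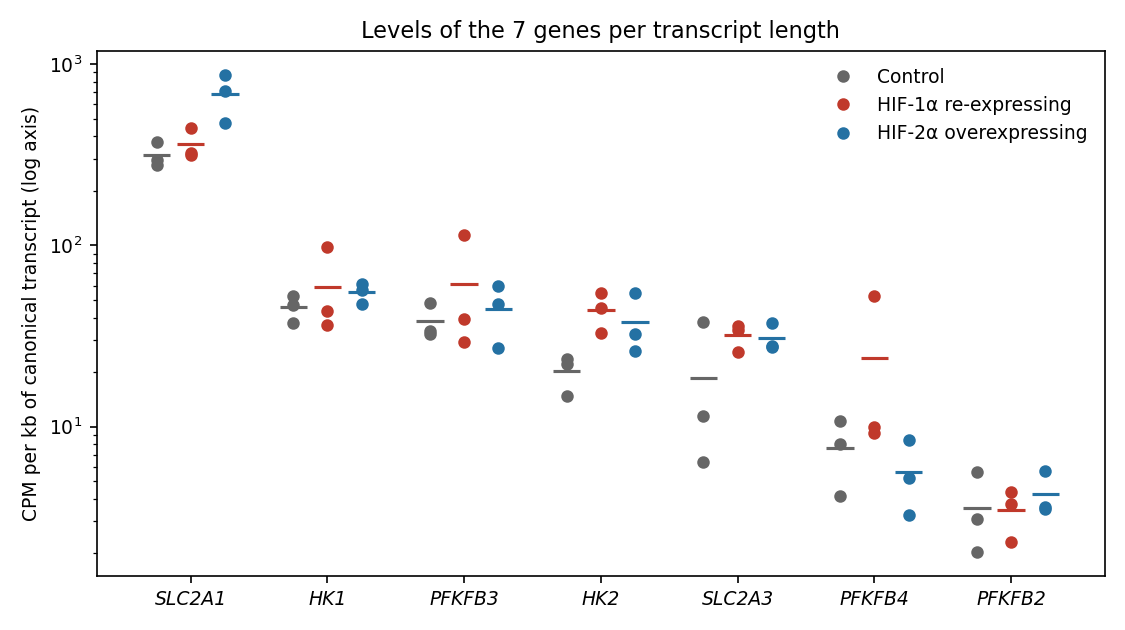
Level of each gene as CPM per kb of its canonical transcript, on a log axis, in control (grey), HIF-1α re-expressing (red) and HIF-2α overexpressing (blue) cells. Points are libraries and short lines are means of 3. SLC2A1 stands above the other 6 genes in every library, and PFKFB2 is the lowest in control cells by its mean of 3.58.

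The genes around the members in the same pathway were called in numbers that differed between the tests. In edgeR with the pool as the only term, none of the 10 other hexose transporters tested, of the 5 tested genes of glucose phosphorylation and its reversal, of the 4 at the phosphofructokinase step, or of the 11 later glycolytic enzymes passed in any comparison. Of these 30 genes, 5, 1 and 3 had an unadjusted p under 0.05 in the 3 comparisons, DESeq2 called 1, 0 and 1, and edgeR with the replicate number called 1, 0 and 2, all of them transporters. DESeq2 with the replicate number called 4, 1 and 4, which included, beside transporters, the glycolytic enzymes ENO2 after HIF-1α re-expression and PGK1 between the transgenes, and GCKR, the glucokinase regulator, between the transgenes. The shares of all genes called by each test are those given above, 22%, 3.39% and 12.5% for DESeq2 with the replicate number. SLC2A13, the proton-coupled inositol transporter, was at 9.80 to 23.7 CPM in control and 32.4 to 49.8 in HIF-1α re-expressing cells, a rise of 1.28 ± 0.27 with the replicate number (edgeR adjusted p = 0.0375). SLC2A12, which encodes GLUT12, and SLC2A5, the fructose transporter, were higher in HIF-1α re-expressing than in HIF-2α overexpressing cells by 1.94 and 1.83 with the replicate number (edgeR adjusted p = 0.0457 and 0.0478). The most abundant other transporters were SLC2A10 (28.0 to 85.4 CPM) and SLC2A6 (11.0 to 69.8 CPM). HKDC1, a hexokinase-like enzyme, ranged from 34.3 to 328 CPM and ADPGK, an ADP-dependent glucokinase, from 76.5 to 111. Of the phosphofructokinase subunits, PFKP was at 654 to 974 CPM and PFKL at 88.5 to 275. Both had a peak near a start site in all 7 lists, as did 1.84% of placed genes.

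The later glycolytic enzymes, from GPI to LDHA, had HIF-2α peaks of control cells near 8 of 11 genes (5.33% of placed genes). HIF-1α peaks lay near 10 of 11 (34.6%). Their median log2 fold change was 0.10 after HIF-1α re-expression (-0.01 with the replicate number) and -0.27 after HIF-2α overexpression. GAPDH ranged from 2222 to 7114 CPM and ENO1 from 2172 to 4605, both highest in HIF-1α re-expressing replicate 2, as were HK1, HK2, PFKFB3 and PFKFB4.

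By Pearson's r of log2 CPM (prior count 2) across the 9 libraries, which share pools and replicate numbers, the genes most like SLC2A1 were PLIN2 (0.98), NDRG1 (0.96) and LINC-PINT (0.95). Those most like PFKFB4 were CIC (0.98), CACNB4 (0.97) and PPFIA3 (0.96), and those most like HK2 were GOLGA8I (0.96), PCDHGB2 (0.95) and F2R (0.94). SLC2A3 was nearest to LOC100129550 (0.98), ZNF23 (0.94) and NBPF10 (0.94), and HK1 to IMPAD1 (0.95), DTNA (0.95) and CLSTN1 (0.93). PFKFB3 was nearest to KRBA1 (0.96), ZNF101 (0.96) and PAPD7 (0.94), and PFKFB2 to SAMD9L (0.98), DDX60L (0.98) and IFIH1 (0.97). Among the members themselves r ranged from -0.12, between SLC2A1 and PFKFB4, to 0.72, between HK1 and PFKFB3.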

How the data were processed

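ChIP-seq and PolyA+ RNA-seq of 3 pools of 786-O cells were analysed from the deposited files. Per the study's methods and the submitters' processing notes, ChIP-seq reads were trimmed (Trim Galore 0.3.3), aligned to GRCh37 (BWA 0.7.5a-r405), and peaks called by T-PIC as well as MACS were filtered on their read number; the authors deposited positions only, and 3 input libraries have no list here. RNA-seq reads were aligned with TopHat 2.0.8b and Bowtie 1.0.0, and the authors deposited raw counts per UCSC gene made with HTSeq 0.5.4p3, with replicates kept apart.

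Counts of all 9 libraries entered 1 edgeR 4.0.16 fit (R 4.3.3) without a replicate term, scaled by TMM and filtered on low counts (14225 genes kept, all 7 members included). Quasi-likelihood p-values were adjusted by Benjamini-Hochberg over every gene kept, with a threshold of 0.05. Standard errors are the log2 fold change over the root of the F statistic. Alternatives were the replicate number as a block, DESeq2 1.42.0, other size factors, no filter, only the groups compared, each library left out, and other windows and overlaps for peaks. Deviations from pool means correlated, over the 9 same-numbered pairs from different pools, at 0.385 to 0.647 and the 18 other pairs of different pools at -0.436 to 0.0190, so the numbers pair the libraries. Start sites came from GENCODE 44 lifted to GRCh37, and sequence from GRCh37 (samtools 1.23.1). Of 14225 tested genes 13769 were placed by symbol or older symbol. The edgeR fits, but not DESeq2, were checked on simulated counts of HIF-1α re-expressing against control cells. Each fit was run on counts drawn from its own means and spread. The counts for the fit without the replicate number held no difference between replicate numbers. Without the replicate number 58.6% of 4-fold and 6.12% of 2-fold changes passed, and with it 86.9% and 37.4%. These rates do not compare the fits on the same counts. Of the unchanged genes 5 and 7 passed. A change of 2-fold that did not pass is therefore not shown to be absent. Named were all members, the transgenes, listed genes that passed in edgeR with or without the block and up to 2 more per list by level, and the 3 genes most like each member. The members and lists were chosen with earlier results of these data known.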

Additional observations from a re-analysis of the deposited data

Results flagged for a closer look

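Between HIF-1α re-expressing and HIF-2α overexpressing cells, 1 member and 5 listed genes differed in edgeR with the replicate number in the model, and each was picked out by that test of the difference itself. PFKFB4 was higher in HIF-1α re-expressing cells by 1.78 on the log2 scale, in 3 of 3 pairs of libraries. The others were HIF1A, the transgene, at 4.79, CA9 at 8.85, SLC2A12 at 1.94, TXNIP at 1.88 and SLC2A5 at 1.83. The difference in CA9 is against libraries at 0.105 to 0.694 CPM and depends on the prior count. SLC2A5 was at 4.59 CPM or less in every library. The cause was not tested for any of them.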

How the results depend on the processing

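The number of members called was 0 in each comparison under other size factors, no filter, only the groups compared, and with each library left out (lowest 0, highest 0). DESeq2 called 1, 1 and 2 and DESeq2 with the replicate block 2, 1 and 2, and the replicate block in edgeR 0, 0 and 1, the blocked difference of PFKFB4. Leaving out a library from the fit with the block, an alternative chosen after seeing the data, gave 0 to 3, 0 to 1 and 0 to 2 members called, highest without control replicate 1, and PFKFB4 between the transgenes ranged from 1.202 to 2.20. In edgeR the block changed no other call of a member, and in DESeq2 it added PFKFB4 after HIF-1α re-expression (adjusted p 0.1004 without and 0.00372 with it). Of 105, 105 and 114 recomputed log2 fold changes, 5, 3 and 10 turned in direction, all for results of 0.68 or less in size. HK1 between the transgenes became -0.0289 in DESeq2 with the block and -0.0134 with the replicate block. Left-out libraries gave the lowest and highest log2 fold changes after HIF-1α re-expression of -0.22 and 0.63 (HK1), -0.33 and 0.43 (PFKFB2), -0.18 and 1.01 (PFKFB3) and -0.0124 and 0.33 (SLC2A1), after HIF-2α overexpression of -0.0313 and 0.73 (PFKFB2) and -0.0195 and 0.50 (PFKFB3), and between the transgenes of -0.50 and 0.35 (HK1), -0.00819 and 0.57 (HK2), -0.41 and 0.77 (PFKFB3) and -0.0609 and 0.19 (SLC2A3). The cause was not tested. Counting peaks from the 5′ end of each gene alone left 3 members with HIF-2α (3.05% of placed genes) and 3 with HIF-1β (20.5%) in control cells. It left 3 with HIF-1α in HIF-1α re-expressing cells (30.2%) and 3 with HIF-1β in HIF-2α overexpressing cells (12.4%). HK1 then had no peak in any list, while SLC2A1 and PFKFB4 kept a peak in all 7. A window of 50 kb gave 5 with HIF-2α in HIF-1α re-expressing cells (10.4%) and 7 with HIF-2α in control cells (12.1%). At these depths the spread between libraries, and for peaks the lack of replicates, limits what can be told.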

Other observations

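TXNIP and ARRDC4 encode arrestin-like proteins known to restrain glucose uptake and to be induced by glucose itself. TXNIP was at 1.22, 52.1 and 85.7 CPM in control replicates 1, 2 and 3, at 1.91, 274 and 809 in HIF-1α re-expressing cells and at 1.54, 65.4 and 130 in HIF-2α overexpressing cells. Replicate 1 was thus the lowest library of each pool, and so it was for ARRDC4, at 1.35, 6.97 and 12.7, then 2.18, 32.5 and 51.5, then 2.72, 16.1 and 26.3 CPM. With the replicate number in the model, both passed after HIF-1α re-expression, TXNIP at 2.31 ± 0.43 and ARRDC4 at 1.74 ± 0.31 on the log2 scale (edgeR adjusted p = 0.0340 and 0.0320), and without it neither did (adjusted p = 0.387 and 0.329). TXNIP had no peak within 10 kb of a start site in any of the 7 lists, where 55% of placed genes had at least 1. ARRDC4 had a peak only in the list of HIF-1β in HIF-1α re-expressing cells (40.8% of placed genes).

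Among the control libraries, SLC2A1, SLC2A3, HK2 and PFKFB2 were highest in replicate 1, at 1264, 145, 133 and 39.7 CPM. HK1, PFKFB3 and PFKFB4 were not, at 168, 146 and 28.0 CPM in that library. In both pools with a transgene, replicate 1 was instead the lowest library for SLC2A1, SLC2A3 and HK2. PFKFB2 was highest in replicate 1 of HIF-1α re-expressing cells, but not of HIF-2α overexpressing cells. HKDC1 was highest in replicate 1 of every pool, at 185 to 328 CPM against 34.3 to 159 in the other libraries. These values were noticed after the data were seen, and no culture record here ties replicate 1 to a medium, density or date.

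Among the 7 epithelial and carcinoma markers, 2 passed after HIF-1α re-expression with the replicate number in the model, against 7.96% of all genes. The keratin gene KRT18 fell by 0.86 on the log2 scale (edgeR adjusted p = 0.0405), from 172 to 212 CPM in control cells to 84.9 to 142 CPM. CA9 rose by 5.72 (edgeR adjusted p = 0.0427). KRT18 was also lower after HIF-2α overexpression, at 0.810, 0.502 and 0.591 times the control library of the same number. KRT8 and PAX2 were lower in all 3 pairs in both comparisons with control (25% and 19.4% of all genes). CDH2 was higher in all 3 pairs after HIF-1α re-expression (29%).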
